A study of Mus musculus with 6 samples.

Results

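The 8 genes described here encode the cyclin-dependent kinase (CDK) inhibitors of the mouse and were followed in hepatocytes of undamaged and regenerating liver. They were chosen by gene name, as Cdkn1a, Cdkn1b, Cdkn1c, Cdkn2a, Cdkn2b, Cdkn2c, Cdkn2d and Cdkn3, and make up 8 of the 55450 genes counted. The data are 6 bulk RNA-Seq libraries of hepatocytes purified by 2-step collagenase perfusion from C57BL/6 mice on normal diet (C57BL/6J in the study's methods). The labels give the mice as 10 to 12 weeks old, and the study's methods give a younger range. The mice were male, no engineered allele is named, and the study describes the libraries of each group as biological replicates. The 0 h group (n = 3) came from undamaged livers, with no sham operation described, although its labels name partial hepatectomy (PHx), an operation that takes out most of the liver, as the protocol. The other group (n = 3) was taken 48 h after PHx, so effects of the operation itself and of regeneration cannot be told apart.

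Cells divide when CDKs, switched on by cyclins, phosphorylate the retinoblastoma protein and the machinery of DNA replication and mitosis. CDK inhibitors act on that step in different ways. The CIP/KIP proteins p21 (Cdkn1a), p27 (Cdkn1b) and p57 (Cdkn1c) bind whole cyclin-CDK complexes, and CDK2 complexes above all. The INK4 proteins p16 (Cdkn2a), p15 (Cdkn2b), p18 (Cdkn2c) and p19 (Cdkn2d) bind CDK4 and CDK6 and keep D-type cyclins away from them. Cdkn3 encodes a phosphatase, KAP, that removes the activating phosphate of CDK2 and CDK1. PHx is a common way to follow hepatocytes through division in a mouse, and the comparison places the genes that hold the cycle back beside the genes that drive it.

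The sequences before the start sites are shown for 3 members that changed and that differ in the short elements they carry. RefSeq promoter windows of GRCm38.p6 were found for 7 of the 8 genes, 10 windows in all, and the 250 bases before each start site were searched on both strands. Searched were the cell cycle homology region, or CHR, in its form TTTGAA and its variant TTCGAA, the CCAAT box, the Sp1 element GGGCGG, the FoxO element TGTTTAC and the 20-base p53 element with at most 1 mismatch. The E2F core was searched as TTCCCGC and also in the forms spelled TTGGCGC, in the form spelled TTCGCGC and in that spelled TTGCCGC. No 2 of these elements overlapped within the 3 stretches. Capitals mark the p53 element of Cdkn1a, the CCAAT boxes of Cdkn1b, and the CHR and CCAAT boxes of Cdkn3, in either orientation. All 3 stretches are on the plus strand, at chr17:29090729-29090975, chr6:134920151-134920400 and chr14:46760291-46760540, and that of Cdkn1a leaves out the bases next to the start site that lie in an annotated exon.
Cdkn1a: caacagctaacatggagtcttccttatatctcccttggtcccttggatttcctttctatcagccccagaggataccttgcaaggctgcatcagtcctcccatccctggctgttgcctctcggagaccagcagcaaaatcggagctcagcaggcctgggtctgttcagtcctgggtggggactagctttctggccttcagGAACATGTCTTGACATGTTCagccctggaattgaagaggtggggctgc
Cdkn1b: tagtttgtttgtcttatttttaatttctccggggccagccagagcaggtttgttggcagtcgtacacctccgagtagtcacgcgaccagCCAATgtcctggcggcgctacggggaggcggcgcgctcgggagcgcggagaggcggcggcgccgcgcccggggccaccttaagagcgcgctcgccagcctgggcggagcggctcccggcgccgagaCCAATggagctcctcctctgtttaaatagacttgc
Cdkn3: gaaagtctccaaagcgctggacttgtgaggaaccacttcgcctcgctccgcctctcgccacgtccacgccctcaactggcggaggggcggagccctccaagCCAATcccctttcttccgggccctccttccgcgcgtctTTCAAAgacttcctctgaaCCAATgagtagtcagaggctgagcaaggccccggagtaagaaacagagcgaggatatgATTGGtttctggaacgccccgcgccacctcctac

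The p53 element of Cdkn1a, a site of the kind bound by the tumor suppressor p53, lay at positions -51 to -32 from the upstream start site. Such an element was in 25 of 32851 windows, or 0.0761%, and in no other window of the members. Cdkn3 carried a CHR at positions -111 to -106 from its start, an element found in 17.1% of windows, and CCAAT boxes that began at -149, -92 and -34. The Cdkn1b stretch held CCAAT boxes that began at -161 and -35, and CCAAT was in 33.8% of windows. A CHR also lay at -161 to -156 in the window of Cdkn2b, which was not tested, and a CCAAT box began at -220 in that of Cdkn2d. An E2F core, TTCCCGC, lay at positions -25 to -19 from the upstream start of Cdkn2c and also in a Cdkn2a window, against 7.89% of all windows. Sp1 elements, made of G and C alone, were in 6 of the 10 windows of the members, 1 each of Cdkn1a, Cdkn1b, Cdkn2a, Cdkn2c, Cdkn2d and Cdkn3, against 32.7% of all windows. The members' windows were also richer in GC, at 42.8% to 78.4% with 9 of 10 above the median of 52.4% over all windows, and the part of GC content in these counts was not tested. The FoxO letters, present in 3.17% of windows, were in none of the 10 windows of the members. These matches are descriptions of the letters, and the counts per gene do not separate transcripts from different start sites of Cdkn1a, Cdkn2a or Cdkn2c.

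The libraries of 0 h held 31419443 to 36346220 gene counts and those of 48 h held 31684152 to 33093006, so that 3 counts, used as the floor of detection, equal 0.0840 to 0.102 CPM (counts scaled to a library of fixed size, here with TMM normalization). The 12 hepatocyte markers took up 11.4% to 13.7% of the counts at 0 h and 9.77% to 11.9% at 48 h, and in normalised CPM the groups did not overlap. Of these markers 4 fell and 2 (Fga and Fgb) rose by the test described next, and the number that rose was 0 to 3 when any 1 library other than 48 h replicate 2 was left out and 4 by library size only. Of the 12 endothelial markers 11 fell (7 without 0 h replicate 3), with a summed level of 284 to 424 CPM at 0 h and 198 to 225 CPM at 48 h. The stellate cell and fibroblast markers summed to 126 to 195 CPM and 90.8 to 114 CPM, and of the 11 tested 2 rose and 3 fell (6 without 0 h replicate 1). As shares of the counts these overlapped, at 0.0118% to 0.0185% and 0.00924% to 0.0125%. Summed Kupffer cell markers overlapped between the groups in CPM, at 82.7 to 124 and 121 to 147, but not as shares of the counts, at 0.00772% to 0.0118% and 0.0123% to 0.0161%. Of the 12, 3 were called higher and 0 lower (1 lower without 0 h replicate 1), and the number higher was 2 to 4 over all alternatives. The cholangiocyte markers overlapped too, at 35.3 to 63.5 CPM and 47.9 to 59.6 CPM, with Krt7, Epcam and Cftr at or under 3 counts in every library. Of the 4 cholangiocyte markers tested 2 rose (Muc1 entered the test only through its 48 h libraries), which became 0 or 1 without any 1 library other than 0 h replicate 1. The 10 leukocyte markers summed to 2.83 to 3.81 CPM and 2.67 to 3.89 CPM, with Mpo at 0 in every library and 0 of the 1 tested (Ptprc) called. The part of these shifts in the results below was not tested, and in bulk libraries fewer cells of a type cannot be told apart from less RNA per cell.

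Of the 8 genes, 5 had more transcript at 48 h after PHx: Cdkn1a, Cdkn1b, Cdkn2c, Cdkn2d and Cdkn3. None was lower, and Cdkn1c, Cdkn2a and Cdkn2b were too low to be tested. The rises ran from 1.60-fold for Cdkn1b, the most abundant of the 8 per length at 0 h, to 48.0-fold for Cdkn3. The quasi-likelihood test of edgeR was used on 17037 genes, with p adjusted over all of them by Benjamini and Hochberg's method. These genes were those with 10 counts or more in 3 or more libraries, and an adjusted p under 0.05 was called a change. Over all genes tested 21.4% were called higher and 19.3% lower, with a median log2 fold change of 0.00. The same 5 genes were called higher, and 0 lower, by DESeq2 and by limma-voom, and at an unadjusted p under 0.05 edgeR also gave 5 higher and 0 lower. The same 5 genes had all 3 libraries of 48 h above all 3 of 0 h, which held for 27.8% of genes tested (25.0% had them all below). Cdkn3 reached 10 counts in 2 libraries of 0 h, so it entered the test only through its 48 h libraries, and the count of 5 is given as a description.

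**Figure D1:**
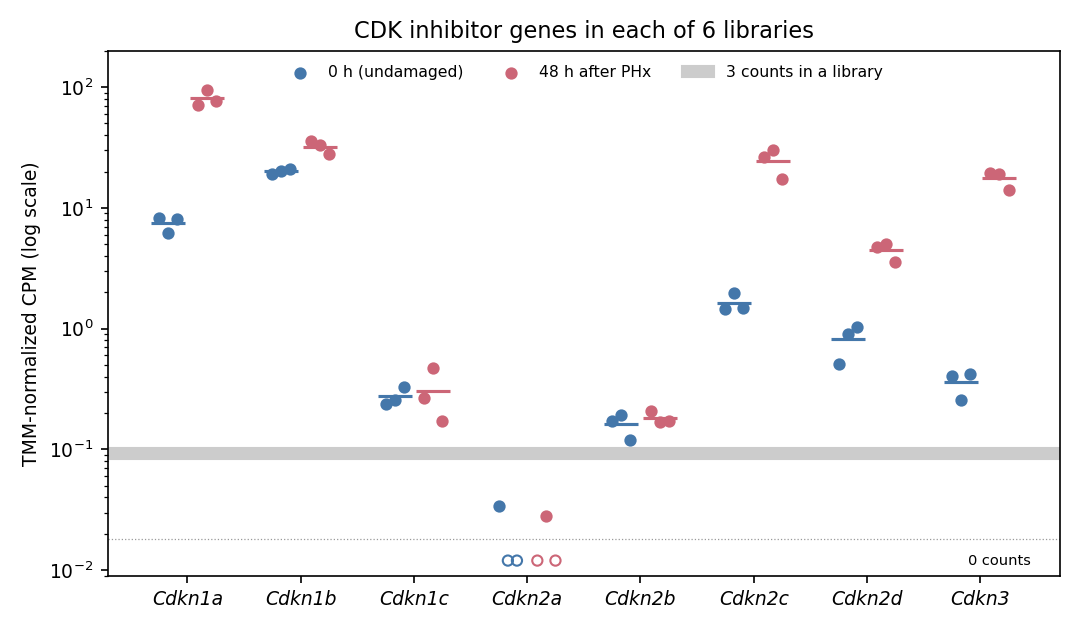
Level of each CDK inhibitor gene in each library, as TMM-normalised CPM on a log axis, with the genes side by side. Points are libraries at 0 h (n = 3) and 48 h after PHx (n = 3), short bars are group means where no library is at 0, the grey band marks the level of 3 counts, and open circles mark 0 counts. The 48 h points lie above the 0 h points for Cdkn1a, Cdkn1b, Cdkn2c, Cdkn2d and Cdkn3 and overlap them for the other genes.

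Cdkn1a (ENSMUSG00000023067.14, chr17:29090976-29100727, plus strand) encodes p21, which arrests the cycle after DNA damage and other stresses and also assists the assembly of cyclin D-CDK4 complexes. Its counts were 241, 193 and 270 at 0 h and 2399, 3406 and 2700 at 48 h. All 48 h libraries lay far above all 0 h libraries, and 48 h replicate 2 was the highest of its group. Normalised levels were 7.52 CPM ± 1.13 (SD, n = 3) at 0 h and 81.3 CPM ± 12.5 (SD, n = 3) at 48 h, a 10.8-fold rise. The log2 fold change was 3.43 (SE 0.157), with adjusted p = 1.19e-07 by edgeR, and 333 of the genes tested had a larger one. An unnamed gene on the opposite strand, AC167363.2, covers 7.68% of the exon bases of Cdkn1a. It had 2 to 6 counts at 0 h and 12 to 13 at 48 h. Whether reads were counted by strand is not given in the sources used here. It is thus not known whether reads in that stretch were assigned by strand or left out as ambiguous.

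Cdkn1b (ENSMUSG00000003031.14, chr6:134920401-134925513, plus strand) encodes p27, the inhibitor that accumulates in resting cells and is destroyed through Skp2 as cells enter S phase. Its counts were 558, 625 and 696 at 0 h and 1202, 1174 and 973 at 48 h. The groups did not overlap, although 48 h replicate 3 came closer to the 0 h libraries than the other two. The level went from 20.05 CPM ± 0.989 (SD, n = 3) to 32.1 CPM ± 4.01 (SD, n = 3), a 1.60-fold rise. Its log2 fold change was 0.68 (SE 0.118, adjusted p = 0.00115), and 2736 genes tested had a larger one.

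Cdkn1c (ENSMUSG00000037664.13, chr7:143458339-143461050, minus strand) encodes p57, whose gene is imprinted and expressed mainly from the maternal copy. It had 7, 8 and 11 counts at 0 h and 9, 17 and 6 counts at 48 h, and the groups overlapped. Levels were 0.276 CPM ± 0.0491 (SD, n = 3) and 0.305 CPM ± 0.156 (SD, n = 3). Without a filter on low counts its log2 fold change was 0.12 (SE 0.504, adjusted p = 0.898 by edgeR), with a 95% interval of -0.86 to 1.11. Changes within that interval were compatible with these counts, which were low and ran from 6 to 17 at 48 h. The opposite-strand gene Gm44732 covers 30.7% of its exon bases but had 0 counts in every library.

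The INK4 genes split into a pair that rose and a pair with at most 7 counts in any library. Cdkn2c (ENSMUSG00000028551.14, chr4:109660876-109667189, minus strand), the gene of p18, had 43, 61 and 49 counts at 0 h and 884, 1085 and 602 counts at 48 h. Every 48 h library exceeded every 0 h library, and 48 h replicate 3 was the lowest of its group. Its level went from 1.64 CPM ± 0.287 (SD, n = 3) to 24.6 CPM ± 6.74 (SD, n = 3), a 15.01-fold rise. The log2 fold change was 3.91 (SE 0.238, adjusted p = 8.26e-07), and 259 genes tested had a larger one.

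Cdkn2d (ENSMUSG00000096472.2, chr9:21288410-21291407, minus strand), the gene of the INK4 protein p19, had 15, 28 and 34 counts at 0 h. At 48 h it had 161, 181 and 124 counts, all above the 0 h values. The level rose 5.44-fold, from 0.813 CPM ± 0.268 (SD, n = 3) to 4.47 CPM ± 0.810 (SD, n = 3), with a log2 fold change of 2.44 (SE 0.277, adjusted p = 7.52e-05). Its 0 h libraries had the largest relative spread of the members called, and the fold is the less precise for it.

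Cdkn2a and Cdkn2b lie next to each other on chromosome 4, with 11645 bases between them, in a locus that Polycomb proteins keep silent in many young tissues. Cdkn2a (ENSMUSG00000044303.6, chr4:89274471-89294653, minus strand) encodes p16 and, in another reading frame, the p53 activator Arf, and counts per gene do not separate them. It had 1, 0 and 0 counts at 0 h and 0, 1 and 0 counts at 48 h, so it was not detectable above 3 counts in any library and no fold is given. Cdkn2b (ENSMUSG00000073802.5, chr4:89306299-89311039, minus strand) encodes p15, an inhibitor induced by TGF-beta in epithelial cells. It had 5, 6 and 4 counts at 0 h and 7, 6 and 6 at 48 h, with levels of 0.161 CPM ± 0.0373 (SD, n = 3) and 0.182 CPM ± 0.0222 (SD, n = 3). The groups overlapped, and without a filter its log2 fold change was 0.16 (SE 0.631, adjusted p = 0.891 by edgeR), with a 95% interval of -1.08 to 1.40.

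Cdkn3 (ENSMUSG00000037628.10, chr14:46760541-46771669, plus strand), the phosphatase gene, had the largest rise of the 5 genes tested. It had 12, 8 and 14 counts at 0 h and 657, 687 and 492 counts at 48 h. The groups were widely separated, and replicate 3 was again the lowest library of the 48 h group, as for Cdkn1b, Cdkn2c and Cdkn2d. Levels were 0.363 CPM ± 0.0911 (SD, n = 3) and 17.6 CPM ± 3.07 (SD, n = 3), a 48.0-fold rise. The log2 fold change was 5.58 (SE 0.237, adjusted p = 7.78e-08), and 99 of the genes tested had a larger one.

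Per kilobase of exon, which allows levels of different genes to be compared, the order of the 8 genes differed between the groups. At 0 h Cdkn1b led with 4.40 CPM per kb ± 0.217 (SD, n = 3), followed by Cdkn1a with 2.12 ± 0.317. Cdkn2c (0.609 ± 0.107) and Cdkn2d (0.517 ± 0.171) came next, and their libraries overlapped. Cdkn3, Cdkn1c and Cdkn2b followed at 0.153, 0.135 and 0.116 CPM per kb, each overlapping its neighbour, and Cdkn2a was last. At 48 h Cdkn1a led with 22.9 CPM per kb ± 3.53 (SD, n = 3). Cdkn2c (9.16 ± 2.51), Cdkn3 (7.43 ± 1.30) and Cdkn1b (7.06 ± 0.880) followed, each overlapping its neighbour in that order. Cdkn2d stood at 2.84 CPM per kb ± 0.514, and Cdkn1c and Cdkn2b followed at 0.150 and 0.131, from 6 to 17 counts per library. Within each 48 h library, however, Cdkn2c was above both Cdkn3 and Cdkn1b, and Cdkn3 was above Cdkn1b except in replicate 3. With the length of the longest transcript instead, Cdkn3 was above Cdkn2c in replicate 3, and Cdkn1b was below both in every 48 h library. Thus Cdkn1b, although it rose, went from the first place to below Cdkn1a and Cdkn2c in every 48 h library. Its order against Cdkn3 depended on the library and on the length used.

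The summed level of the 8 genes was 7.80, 7.86 and 8.53 CPM per kb in the 0 h libraries and 49.2, 57.1 and 42.6 in the 48 h libraries. As a share of that sum, which does not depend on scaling between libraries, Cdkn1b made up 54.6% ± 1.48 (SD, n = 3) at 0 h and 14.3% ± 1.64 at 48 h. Cdkn1a made up 26.3% ± 3.71 at 0 h and 46.2% ± 5.15 at 48 h. The share of Cdkn2c was 7.59% ± 1.52 and then 18.2% ± 2.78, and that of Cdkn3 was 1.89% ± 0.446 and then 14.9% ± 1.54. For these 4 genes the libraries of the groups did not overlap. The share of Cdkn2d overlapped between the groups, at 6.37% ± 1.91 and 5.70% ± 0.448. The shares are descriptions and were not tested.

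**Figure D2:**
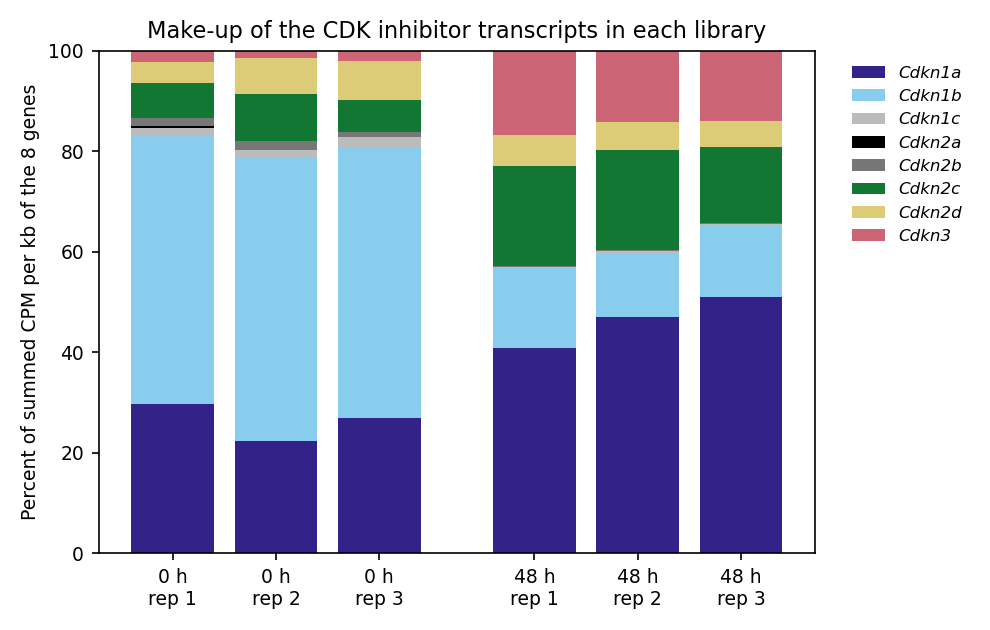
Share of each CDK inhibitor gene in the summed level of the 8 genes, in percent of TMM-normalised CPM per kb of exon, as 1 stacked bar for each of the 6 libraries. Cdkn1b takes the largest share in the 3 libraries of 0 h and Cdkn1a in the 3 libraries of 48 h.

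Within the CIP/KIP family, the per-kb level of Cdkn1a was 0.553, 0.396 and 0.497 times that of Cdkn1b in the 0 h libraries. In the 48 h libraries it was 2.56, 3.72 and 3.56 times that of Cdkn1b, so p27 transcripts exceeded p21 transcripts in every 0 h library and the reverse held in every 48 h library. Within the INK4 family, the ratio of Cdkn2c to Cdkn2d was 1.68, 1.28 and 0.845 at 0 h. It was 3.22, 3.51 and 2.84 at 48 h, above every 0 h library. These ratios and the shares above depend on the exon length used. With the longest transcript in place of the union of exons, the ratio of Cdkn1a to Cdkn1b was 0.945, 0.676 and 0.849 at 0 h and 4.37, 6.35 and 6.07 at 48 h, and the mean share of Cdkn1a was 37.2% at 0 h and 57.1% at 48 h, that of Cdkn1b 45.4% and 10.4%.

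The kinases and cyclins that the inhibitors bind rose widely beside them. Of 12 tested, 10 were called higher and 0 lower, with a median log2 fold change of 3.24 against 0.00 over all genes. Ccnb1 and Ccnb2 entered the test only through their 48 h libraries, and with 10 counts required in all libraries 8 genes of 10 tested were called higher. Counts of 0 lower were also given at an unadjusted p under 0.05 and by DESeq2 and limma-voom. The partners of the INK4 proteins moved unequally. Cyclin D1 (Ccnd1), which activates CDK4 and CDK6, rose by a log2 fold change of 3.41 (SE 0.127, adjusted p = 4.11e-08), and Cdk4 by 0.75 (SE 0.121, adjusted p = 0.000724). Cdk6 had a log2 fold change of 0.26 (SE 0.107, adjusted p = 0.0787) and was not called. Scaled by library size only, which shifted the median of all genes by 0.20, Cdk6 was called higher, at 0.46 (adjusted p = 0.00483).

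The genes of CDK2, CDK1 and their cyclins E, A and B, which include the targets of KAP, were called higher. Cdk2, the kinase of late G1 and S phase, rose by 1.21 (SE 0.121, adjusted p = 3.15e-05) on the log2 scale. Its activators cyclin E1 (Ccne1) and cyclin E2 (Ccne2) rose by 5.36 (SE 0.211, adjusted p = 5.40e-08) and 3.08 (SE 0.177, adjusted p = 5.77e-07). The mitotic kinase gene Cdk1 rose by 5.57 (SE 0.255, adjusted p = 1.19e-07), a log2 fold change next to the 5.58 of Cdkn3. The mitotic cyclin gene Ccnb1 had the largest rise of the list, 5.99 (SE 0.349, adjusted p = 6.23e-07).

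**Figure D3:**
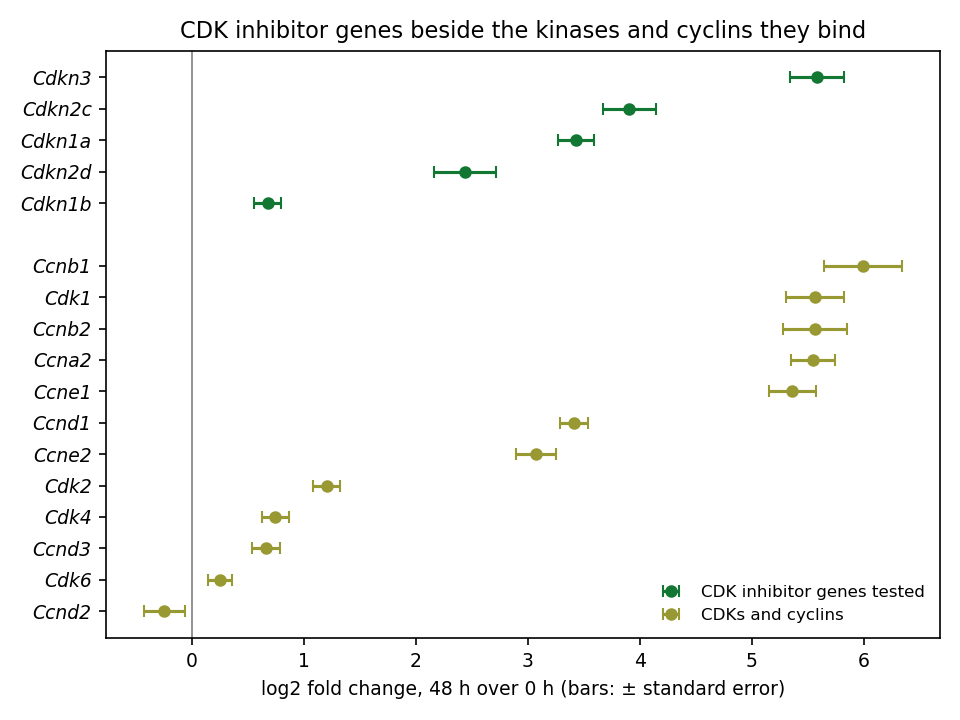
Log2 fold change, 48 h after PHx against 0 h, of the 5 CDK inhibitor genes tested and of 12 CDKs and cyclins, from edgeR, with n = 3 libraries in each group. Points are estimates and bars are 1 standard error on each side. The estimates of Cdkn3 (5.58) and Cdk1 (5.57) are near each other, as are those of Cdkn1b (0.68) and Cdk4 (0.75).

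Among 8 genes that set the phosphorylation of CDKs, 5 rose and 0 fell, with a median log2 fold change of 2.97. Of the 5, Cdc25b and Cdc25c entered the test only through their 48 h libraries, and 3 of 6 tested were called higher with 10 counts required in all libraries. No gene was lower at an unadjusted p under 0.05, nor by DESeq2 or limma-voom. Cdc25c, a phosphatase that activates CDK1, had the largest fitted rise, 6.96 (SE 0.473, adjusted p = 1.87e-06), but with 0, 3 and 1 counts at 0 h its size depends on the fit. It had 219, 237 and 147 counts at 48 h. The subunits of the CDK-activating kinase, whose phosphate KAP removes, did not pass the test, with log2 fold changes of -0.09 for Cdk7, -0.12 for Ccnh and -0.11 for Mnat1.

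Of 12 genes of the ubiquitin ligases that destroy CDK inhibitor proteins and their cofactors, 5 rose and 2 fell, with a median of 0.29. Skp2, which recognises p27, rose by 1.98 (SE 0.131, adjusted p = 1.50e-06) and its cofactor Cks1b by 2.06 (SE 0.169, adjusted p = 7.77e-06). Dtl, the receptor of the ligase that degrades PCNA-bound p21, had the largest rise, 5.93 (SE 0.224, adjusted p = 4.33e-08). Rnf123, a subunit of the ligase that acts on p27 in G1, had a log2 fold change of -0.78 (SE 0.100, adjusted p = 0.000173). The second gene that fell was Cul4a, and its call was lost without 0 h replicate 1 (adjusted p = 0.0636), 48 h replicate 1 (0.0622) or 48 h replicate 2 (0.0647), with the replicate block (0.0555) and by library size only (0.359). These are transcripts, and the amounts of the inhibitor proteins were not measured in the data used here.

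Cdkn1a is a target of p53, and 9 of the 15 p53 pathway genes tested rose while 3 fell, with a median log2 fold change of 0.82. Trp53, the p53 gene itself, rose by 0.48 (SE 0.128, adjusted p = 0.0128), a call lost without 48 h replicate 2 (adjusted p = 0.0540). Mdm2, a p53 target whose protein degrades p53, rose by 1.13 (SE 0.111, adjusted p = 2.78e-05). Phlda3, an inhibitor of Akt signalling, had the largest rise, 4.67 (SE 0.489, adjusted p = 4.25e-05), from 2, 7 and 3 counts at 0 h to 65, 173 and 116 at 48 h. Phlda3 and Eda2r entered the test only through their 48 h libraries, and with 10 counts required in all libraries 7 of 13 genes tested were called higher. Bbc3, which encodes the death-promoting protein PUMA, had a log2 fold change of -1.58 (SE 0.290, adjusted p = 0.00160), so targets of the same factor moved in both directions. Sesn1, also called lower, lost its call without 0 h replicate 3 (adjusted p = 0.0605), 48 h replicate 2 (0.0591) or 48 h replicate 3 (0.0547), and by library size only (0.0672). Pmaip1 was too low to be tested.

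FoxO factors activate Cdkn1b in other settings. Of 9 tested genes of this group 6 fell and 1 rose, with a median of -0.60. Foxo4 was among the 6, at -0.39 (SE 0.141, adjusted p = 0.0494), and its call was lost with the replicate block (0.0776), by limma-voom (0.0546), with 10 counts required in all libraries (0.0526), by library size only (0.340) and without any 1 library other than 0 h replicate 2 (0.0549 to 0.179), so that 5 genes fell there. Foxo1 rose by 0.47 (SE 0.151, adjusted p = 0.0307), a call lost without 0 h replicate 2 (adjusted p = 0.0932), 0 h replicate 3 (0.0920), 48 h replicate 1 (0.0971) or 48 h replicate 2 (0.108). Foxo3 had a log2 fold change of -0.76 (SE 0.165, adjusted p = 0.00439). Irs2, an insulin signalling adaptor and FoxO target, had the largest fall, -1.12 (SE 0.247, adjusted p = 0.00465). Without 0 h replicate 2, 7 genes of the FoxO group were called lower. Foxo6 was too low to be tested.

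In the axis from TGF-beta to Cdkn2b, 1 of 11 genes was called higher and 0 lower, with a median of 0.24. At an unadjusted p under 0.05 edgeR gave 2 higher and 0 lower, and DESeq2 and limma-voom each called 1 higher and 0 lower. The receptor gene Tgfbr2 rose by 0.84 (SE 0.113, adjusted p = 0.000222). Myc, which opposes the induction of Cdkn2b, had 1047, 197 and 647 counts at 0 h and 980, 1735 and 900 at 48 h. Its log2 fold change of 0.75 (SE 0.462, adjusted p = 0.223) was not called, and without 0 h replicate 1 it was called, at 1.40 (adjusted p = 0.0315). The count called higher in this axis was 5 by library size only, where Smad2, Smad4, Tgfbr1 and Tgfb3 were called too, and 2 with either other filter or without any 1 of the 0 h replicates.

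Of 10 Polycomb genes, whose products repress the Cdkn2a locus, 6 rose and 3 fell, with a median of 0.60, while Cdkn2a stayed at or under 1 count in every library. Ezh2, the histone H3 methyltransferase of the complex, rose by 2.49 (SE 0.165, adjusted p = 1.55e-06). Bmi1, known for its repression of this locus in progenitor cells, rose by 0.52 (SE 0.105, adjusted p = 0.00281). Cbx7, a reader of the mark that Ezh2 writes, had a log2 fold change of -0.77 (SE 0.152, adjusted p = 0.00249). Ezh1, the related methyltransferase gene and also called lower, lost its call without 0 h replicate 1 (adjusted p = 0.0769), 48 h replicate 1 (0.0604) or 48 h replicate 2 (0.0625). By library size only its call was lost too, at -0.19 (adjusted p = 0.235).

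Cdkn1c lies in the imprinted Kcnq1 domain of chromosome 7. Of 8 tested genes of that domain 4 rose and 3 fell, with a median of -0.01, and Cdkn1c, Ascl2, Trpm5 and Tspan32 were too low to be tested. Kcnq1ot1, the long noncoding RNA of the paternal copy that silences its neighbours, rose by 0.49 (SE 0.158, adjusted p = 0.0306). That call was lost without 0 h replicate 1 (adjusted p = 0.112), 0 h replicate 3 (0.125), 48 h replicate 1 (0.0764) or 48 h replicate 2 (0.0954). Phlda2 had the largest rise, 2.44 (SE 0.344, adjusted p = 0.000302). With 12, 9 and 10 counts at 0 h it entered the test only through its 48 h libraries, and with 10 counts required in all libraries 3 of 7 genes tested were called higher. Kcnq1 had the largest fall, -1.26 (SE 0.332, adjusted p = 0.0121), a call lost without 0 h replicate 3 (adjusted p = 0.0535). Kcnq1ot1 lies within Kcnq1, and with the strand setting not given it is not known how reads over both genes were assigned.

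A last list held 8 other genes, for proteins that restrain CDKs or, as the retinoblastoma protein, are phosphorylated by them. Of these, 3 rose and 2 fell, with a median of 0.32. Rbl1, the gene of the retinoblastoma relative p107, rose by 3.39 (SE 0.177, adjusted p = 2.97e-07). Cables1, which links CDKs to kinases that inhibit them, had a log2 fold change of -1.40 (SE 0.325, adjusted p = 0.00630). Rbl2, which also counts among the FoxO targets above, was the other gene that fell. The retinoblastoma gene Rb1 was among those called higher, at 0.33 (adjusted p = 0.0355), but lost the call without any 1 library other than 0 h replicate 2 (adjusted p = 0.0720 to 0.109), by DESeq2 (0.0519) and with the replicate block (0.0819). The call was also lost with upper-quartile factors (0.109), with factors from protein-coding genes (0.0723) and with no filter (0.114). By library size only 5 genes of this list were called higher.

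**Figure D4:**
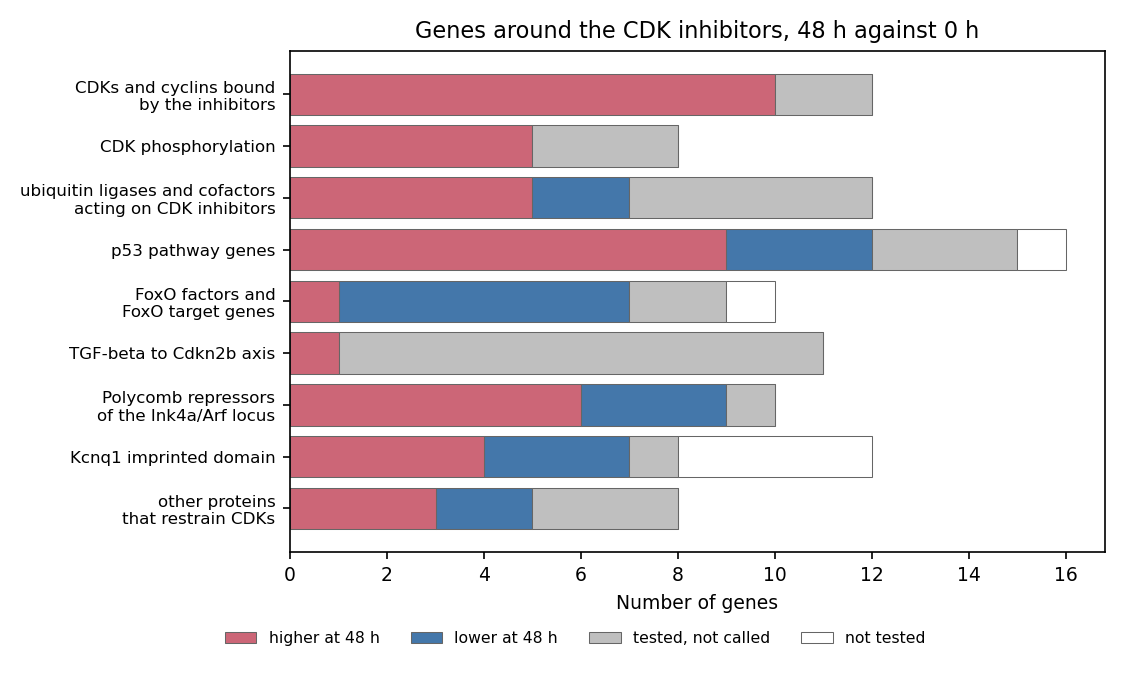
Number of genes called higher, called lower, not called and not tested in each of the 9 pathway lists, 48 h after PHx against 0 h, by edgeR at an adjusted p under 0.05. The CDKs and cyclins hold 10 genes called higher and 0 lower. The FoxO list holds 6 called lower and 1 higher, or 5 lower with the replicate block or by limma-voom. Over all alternatives the FoxO list held 5 to 7 lower and 0 or 1 higher.

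Profiles over the 6 libraries were compared between each member that rose at least 2-fold and 13332 other genes tested with a mean of at least 1 CPM, as the root mean square difference of centred log2 CPM. Genes nearest to Cdkn1a were Fanca (0.132), a protein of the Fanconi anaemia DNA repair complex, Rrm1 (0.141), the large subunit of ribonucleotide reductase, and Ecm2 (0.154), an extracellular matrix protein. Cdkn2c was nearest to Efcab11 (0.136), to Sgo1 (0.155), the protector of centromeric cohesion, and to Haspin (0.158), a mitotic histone H3 kinase. The rank of Efcab11 rests on a level under the floor of 3 counts, with a mean of 0.0751 CPM at 0 h and 1.94 CPM at 48 h, where the prior count of 2 added before the log draws its difference toward 0. Its fitted log2 fold change, 4.63, was farther from the 3.91 of Cdkn2c than the 4.11 of Sgo1 and the 4.03 of Haspin. Around Cdkn2d lay the kinase gene Map4k4 (0.174), Plppr1 (0.189) and the long noncoding RNA AU020206 (0.202). For Cdkn3 the nearest genes were Stil (0.164), needed for centriole duplication, Mcm5 (0.172), a subunit of the replicative helicase, and Orm2 (0.226), an acute-phase plasma protein. The likeness is a description over 6 libraries that fall into 2 groups, and it was not tested.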

How the data were processed

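RNA of hepatocytes from 3 undamaged livers (0 h) and 3 livers 48 h after PHx was sequenced, and groups and replicates were taken from the sample labels. The authors deposited raw counts of reads per gene, without normalization. Per the submitters' processing notes, the tools named are FastQC 0.11.5, Trim Galore 0.6.4, STAR 2.6, HTSeq 0.12.4 and DESeq2, with the mm10 build. The strand setting is not given in the sources used here. Reads on no gene made up 24.3% to 32.7% of each file and ambiguous reads 4.27% to 5.29%, and both were left out of library sizes and tests. The lines for low-quality, unaligned and multiply aligned reads hold 0. All 55450 versioned gene identifiers matched GENCODE M21 (GRCm38), which gave names, positions and exon lengths.

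The test was that of edgeR 4.0.16 under R 4.3.3 (TMM, glmQLFit and glmQLFTest, with time alone in the model) on 17037 genes that had 10 counts or more in 3 or more libraries, with Benjamini-Hochberg adjustment over all of them and a threshold of 0.05. The SE of each log2 fold change is its absolute value over the root of the F statistic. Levels are TMM-normalised CPM, and CPM per kb of the union of exons where genes are compared. P-values of edgeR set the difference between groups against the spread between these libraries, as estimated with information shared across genes. Floors of 3 counts cover counting error only.

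The members and the gene lists were chosen with earlier results of these data known. Named from each list were the called genes with the largest rise and fall and genes acting directly on a member. For each member called with a log2 fold change of 1 or more in size, the 3 nearest profiles (prior count 2) were named. Genes named outside these rules (the CDK-activating kinase subunits, Cul4a, Rbl2, Rb1, Ccnb2, Cdc25b, Eda2r, Sesn1, Foxo4, Ezh1, Smad2, Smad4, Tgfbr1, Tgfb3, and Fga, Fgb, Muc1 and the undetected genes among the markers) were chosen after their values were seen, as were the search for the p53 element and the choice of stretches shown. Alternatives were DESeq2 1.42.0, limma-voom (limma 3.58.1), 3 other scalings, 2 other filters, the replicate number as a block and leaving out each library. TMM factors from protein-coding genes only and the length of the longest transcript were added after seeing the data. A result of 1 marker gene is not reported here.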

Additional observations from a re-analysis of the deposited data

How the results depend on the processing

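Each of the 5 members tested kept its direction and its call under every alternative run, 15 for each and 14 for Cdkn3, which was not tested where 10 counts were required in all libraries. Their log2 fold changes ranged from 3.30 to 3.64 for Cdkn1a, 0.59 to 0.88 for Cdkn1b, 3.73 to 4.12 for Cdkn2c, 2.20 to 2.64 for Cdkn2d and 5.38 to 5.78 for Cdkn3, and the largest adjusted p of any was 0.00742, for Cdkn1b. Scaling by library size only raised the share of calls that were higher from 52.5% to 71.6% and lowered the number of genes called lower from 3288 to 2108. With it, the 0 h level of Cdkn1b was 18.7 CPM. With the length of the longest transcript the per-kb level of Cdkn1a was 3.62 at 0 h and 39.1 at 48 h and that of Cdkn3 at 48 h was 9.02. The order of the genes by group mean stayed the same. Same-numbered libraries were from different mice, and their deviations correlated at 0.03, -0.07 and -0.14. With the replicate number as a block, 5 members were called higher, with Cdkn1b at 0.67 (adjusted p = 0.00472). In the lists, scaling by library size only took the TGF-beta axis from 1 to 5 genes higher and the other genes that restrain CDKs from 3 to 5, and 9 other alternatives took the latter to 2. Genes of CDK phosphorylation called higher went from 5 to 3 with 10 counts required in all libraries, and ubiquitin ligase genes called lower from 2 to 1 under the block and by library size only. Kcnq1ot1 was not called with upper-quartile factors (adjusted p = 0.0834) or with factors from protein-coding genes (0.0605), and Myc was called with no filter (0.0100). The cause of these changes was not tested. Depth limits Cdkn1c and Cdkn2b, at 4 to 17 counts per library, and Cdkn2a, at 0 or 1.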

Other observations

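Ratios of inhibitor to kinase transcripts within each library, chosen after the data were seen, were computed per kb of exon and were not tested. The sum of Cdkn2c and Cdkn2d, the INK4 genes that rose, was 0.0718, 0.118 and 0.0975 times the sum of Cdk4 and Cdk6 in the 0 h libraries and 0.681, 0.846 and 0.552 times that sum in the 48 h libraries. For Cdkn1a and Cdkn1b together against Cdk2, the ratio was 4.26, 3.19 and 3.79 at 0 h and 6.75, 8.41 and 6.91 at 48 h. In both cases every 48 h library lay above every 0 h library. With the length of the longest transcript the mean of the latter ratio was 2.42 at 0 h and 5.95 at 48 h. For Cdkn3 against Cdk1, its substrate, the ratio was 1.66, 0.595 and 1.08 at 0 h and 1.01, 0.986 and 1.14 at 48 h, and the groups overlapped. At 0 h these 2 genes had 8 to 28 counts per library, and the ratio was more spread there than at 48 h.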
